A study of Mus musculus with 13 samples.

Results

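Small RNAs matching the Lx and MusHAL1 LINE sequences of the mouse were examined in sorted male germ cells. LINEs (long interspersed elements) are retrotransposons, and the tables of the series list them by consensus sequence, each standing for many genomic copies. Members were chosen by name alone: sequences whose name starts with Lx or MusHAL1, together with any L1 sequence not marked as a 5end, orf or 3end portion. Of the 262 listed retrotransposons, 19 were LINEs and 3 met the rule, namely Lx3_Mus_3end, MusHAL1 and MusHAL1_5end. Every other L1 name carried a portion mark, so 0 sequences came from the last part of the rule. The rule uses names and no measured value, but it was set with earlier results of these data known. No table gives the age of an element, and the study took its listed retrotransposons as relatively young, so the members are not called older here.

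The 13 libraries came from C57BL6/J mice aged 3 to 4 weeks after birth, and germ cells were isolated by FACS (fluorescence-activated cell sorting) with Hoechst-33342. Libraries without technical replicates formed the single-library set, with 1 library of spermatogonia (SG), 2 of leptotene/zygotene spermatocytes (LZ), 1 of pachytene/diplotene spermatocytes (PD, spelled pachytene/diptotene in the labels) and 1 of round spermatids (RS). In the technical-replicate set, spermatogonia (SG_T) and leptotene/zygotene spermatocytes (LZ_T) had 2 biological replicates each, every one sequenced as 2 technical replicates. The labels gave no genotype, and the groups otherwise shared strain, age and isolation. The header cells of the 8 tables of the technical-replicate set carried a Pld6KO tag that the other 5 tables lacked. The work as published set wild-type germ cells beside those of a Pld6 knockout, and described knockout germ cells that did not proceed past the zygotene stage. Differences between the sets are therefore given as such, because genotype, substage, depth and run cannot be told apart in them.

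PIWI-interacting RNAs (piRNAs) guide PIWI proteins to retrotransposon RNA in germ cells, and reads of 24-33 nt were taken as piRNAs. Antisense piRNAs can pair with the element's transcript, while sense piRNAs have the sequence of the transcript itself. PLD6 is a mitochondrial protein required for the making of primary piRNAs. Lx is a rodent family of L1-related elements. HAL1 elements are L1 relatives that carry ORF1, which encodes an RNA-binding protein, but lack ORF2, which encodes the reverse transcriptase. Lx3_Mus_3end stands for the 3′ portion of an Lx element, MusHAL1 for the murine HAL1 element and MusHAL1_5end for its 5′ portion.

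Depth differed between the sets, from 12541019 to 29956080 reads per library in the single-library set and from 852565 to 7725276 in the other. The share of 24-33 nt reads was lowest in SG_T and LZ_T (12.4% to 24.8%), with 29.8% to 45.2% for SG and LZ and 83.1% to 84.5% for PD and RS. Of the marker miRNAs, miR-449a-5p, known from meiotic and later germ cells, was at 92.9 to 161 RPM (reads scaled to the same total in every library) in PD and RS, 24.1 to 36.1 RPM in LZ and 5.57 RPM in SG. It was at 0 to 17.4 RPM in SG_T and LZ_T, and miR-34b-5p of the same list was at 0.376 to 37.4 RPM in the single-library set and at 0 to 1.32 RPM in the other. The endothelial miR-126a-3p was at 58.4 to 204 RPM in SG and LZ, at 3.76 to 4.39 in PD and RS, and at 427 to 1320 in SG_T and LZ_T. The red blood cell miR-451a was at 0.0573 to 8.43 RPM in SG and LZ, at 0 to 0.0752 in PD and RS, and at 4.26 to 18.03 in SG_T and LZ_T.

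Lx3_Mus_3end small RNAs were most abundant in pachytene/diplotene spermatocytes. The PD library held 77.3 RPM, the 2 LZ libraries 41.7 and 46.3 RPM, the RS library 32.5 RPM and the SG library 22.8 RPM. Both LZ libraries lay above SG and above RS, and PD lay above both. Stages next to each other in this order did not overlap in their 95% Poisson counting intervals. These were 20.3 to 25.5 RPM for SG, 29.4 to 35.8 for RS and 72.6 to 82.1 for PD. For the 2 LZ libraries they were 39.4 to 44.1 and 43.1 to 49.5 RPM, which overlapped each other. The mean over LZ was 44.0 ± 3.196 RPM (SD, n = 2), which was 1.93 times the SG value. PD was 3.39 times SG, and RS was 0.420 times PD. SG, PD and RS had no replicate, so these ratios come from no test, and the intervals cover counting error only.

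MusHAL1 small RNAs followed another order, with the lowest level of the single-library set in round spermatids. The SG library held 155 RPM, the 2 LZ libraries 71.7 and 231 RPM, the PD library 51.8 RPM and the RS library 28.6 RPM. The SG value lay between the 2 LZ libraries, and PD and RS lay below both. The LZ mean was 151 ± 112 RPM (SD, n = 2), with a 3.22-fold gap between the 2 libraries. For the 16 other LINE sequences the second LZ library was 1.65 to 3.57 times the first, with a median of 2.23. For Lx3_Mus_3end this ratio was 1.11. PD was 0.342 times the LZ mean, and this ratio was log2 -2.16 or -0.47 when either LZ library was taken alone.

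MusHAL1_5end gave few small RNAs in every sample. The 2 LZ libraries held 2.51 and 6.44 RPM, against 3.51 RPM for SG, 6.19 RPM for PD and 4.89 RPM for RS. All 3 stages with a single library lay between the 2 LZ libraries, so no order of the 4 stages was apparent beyond that spread. Reads that matched MusHAL1 and MusHAL1_5end equally well were divided between them by the authors, so the rows are not independent.

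**Figure D1:**
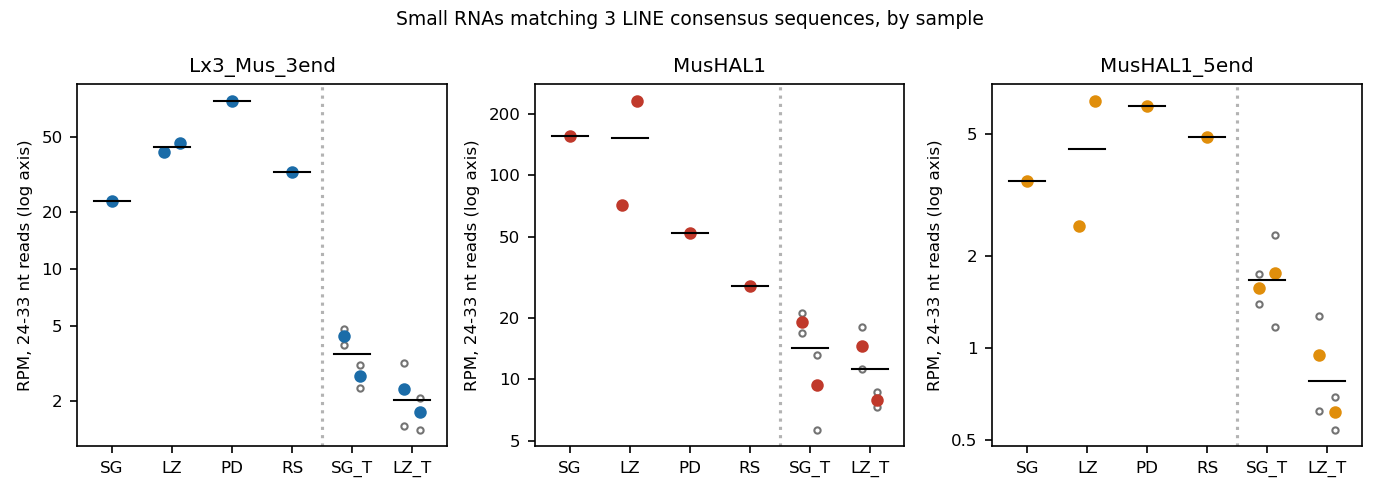
RPM of 24-33 nt reads (log axis, a scale per panel) for the 3 Lx and MusHAL1 sequences in each group, with filled points for biological samples, open points for technical replicates and lines for group means. Lx3_Mus_3end was highest in PD at 77.3 RPM, MusHAL1 was spread from 71.7 to 231 RPM in LZ, and all samples right of the dotted line (SG_T and LZ_T) lay below those to its left.

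A ratio between stages was counted where it passed 2-fold and the sequence had at least 10 RPM in either stage, which left Lx3_Mus_3end and MusHAL1. From SG to PD, Lx3_Mus_3end was over 2-fold higher, as were 30 of the 92 retrotransposons counted (32.6%), and MusHAL1 was over 2-fold lower, as were 36 (39.1%). From LZ to PD, MusHAL1 was over 2-fold lower, as were 40 of 94 (42.6%), and Lx3_Mus_3end was at 1.76 times. From PD to RS, Lx3_Mus_3end was over 2-fold lower, as were 38 of 85 (44.7%), and 0 were higher. From SG to LZ neither passed 2-fold, while 25 of 87 (28.7%) were higher. All of these are descriptive.

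These ratios depended on the scale, because 24-33 nt reads filled most of the PD and RS libraries. Per 24-33 nt read, Lx3_Mus_3end in PD was 1.199 times SG and 0.871 times LZ. Per 19-23 nt read, the size of miRNAs, it was 13.8 times SG. MusHAL1 in PD was 0.118 times SG on the former scale and 1.35 times SG on the latter. Over the 92 retrotransposons counted from SG to PD the median log2 ratio was -0.31 in RPM, -1.81 per 24-33 nt reads and 1.71 per 19-23 nt reads. Lx3_Mus_3end was above this median and MusHAL1 below it. With 1 library per stage a scale shifts every log2 ratio by the same amount, so these positions could not differ between the scales.

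The strand of the reads set the members apart from each other. Of the Lx3_Mus_3end reads, 22.4% ± 2.02 (SD, n = 2) were antisense for LZ. The share was 28.3% for SG (Wilson 95% interval 23.6% to 33.7%), 32.8% for PD (30.0% to 35.7%) and 39.2% for RS (34.7% to 44.1%). Sense reads thus made up most of the Lx3_Mus_3end piRNAs in every stage of the single-library set. For MusHAL1, 78.1% ± 1.26 (SD, n = 2) of LZ reads were antisense. The antisense share was 96.2% for PD (94.4% to 97.3%) and 91.8% for RS (88.6% to 94.3%), against 70.9% for SG (68.9% to 72.8%). Antisense reads were the majority in all 5 of these libraries, and sense MusHAL1 reads came to 1.99 RPM in PD against 45.2 RPM in SG.

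The 5′ portion, MusHAL1_5end, was 95.2% antisense in the PD library (88.1% to 98.1%), 67.3% and 58.7% in the LZ libraries, 64.0% in the RS library (51.4% to 74.8%) and 53.0% in the SG library (39.2% to 66.7%). PD lay above both LZ libraries by more than their spread, but on 6.19 RPM in all. The antisense share was also higher in PD than in both LZ libraries for each of the 16 other LINE sequences, by a median of 20.1 percentage points. The increases for the members were 10.4 points for Lx3_Mus_3end, 18.01 for MusHAL1 and 32.1 for MusHAL1_5end. They were in the longer reads for Lx3_Mus_3end, at 12.2 points for 28-33 nt and -0.48 points for 24-27 nt, where PD lay between the LZ libraries. For MusHAL1 they were 25.2 points at 28-33 nt and 6.88 at 24-27 nt.

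The length of the reads also differed between the stages. PIWI proteins hold piRNAs of characteristic length, shorter for MILI and longer for MIWI, which appears at the pachytene stage. Of the Lx3_Mus_3end piRNAs, 41.2% ± 2.099 (SD, n = 2) were of 28-33 nt for LZ, against 66.2% for PD and 74.8% for RS. The share for MusHAL1 was 40.1% ± 4.34 (SD, n = 2) for LZ, 88.6% for PD and 82.2% for RS, and for MusHAL1_5end 43.5% ± 0.648 (SD, n = 2), 89.7% and 78.3%. PD lay above both LZ libraries for all 3 members and for all 16 other LINE sequences, whose median was 45.3% in LZ and 83.2% in PD.

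Read by strand and length together, the level of MusHAL1 in PD rested on a single class, since antisense 28-33 nt reads accounted for 44.5 of the 51.8 RPM. The same class was at 42.5 RPM in SG and at 18.8 and 72.5 RPM in LZ, so PD lay within the spread of LZ. MusHAL1 reads of 24-27 nt were at 89.3 RPM in SG, at 45.1 and 131 RPM in LZ and at 5.90 RPM in PD, which was 14.9-fold lower than the LZ mean. Lx3_Mus_3end reads of 24-27 nt were at 25.1 and 26.5 RPM in LZ and 26.2 RPM in PD, so PD lay between the LZ libraries. Its 28-33 nt reads were at 16.6 and 19.8 RPM in LZ and 51.1 RPM in PD, which was 2.81 times the LZ mean. Within 24-33 nt, the higher level of Lx3_Mus_3end in PD than in LZ was thus in the longer reads. Of these, 30.5 RPM were sense and 20.7 RPM antisense. Against SG, its 24-27 nt reads were higher in PD too, at 26.2 against 12.4 RPM. Outside the piRNA range, its 19-23 nt reads were at 45.0 RPM in PD, 18.04 RPM in the LZ mean and 7.92 RPM in SG. The class sums of the other LINE sequences were 13.7-fold lower in PD than in LZ at 24-27 nt and 2.65-fold lower at 28-33 nt.

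**Figure D2:**
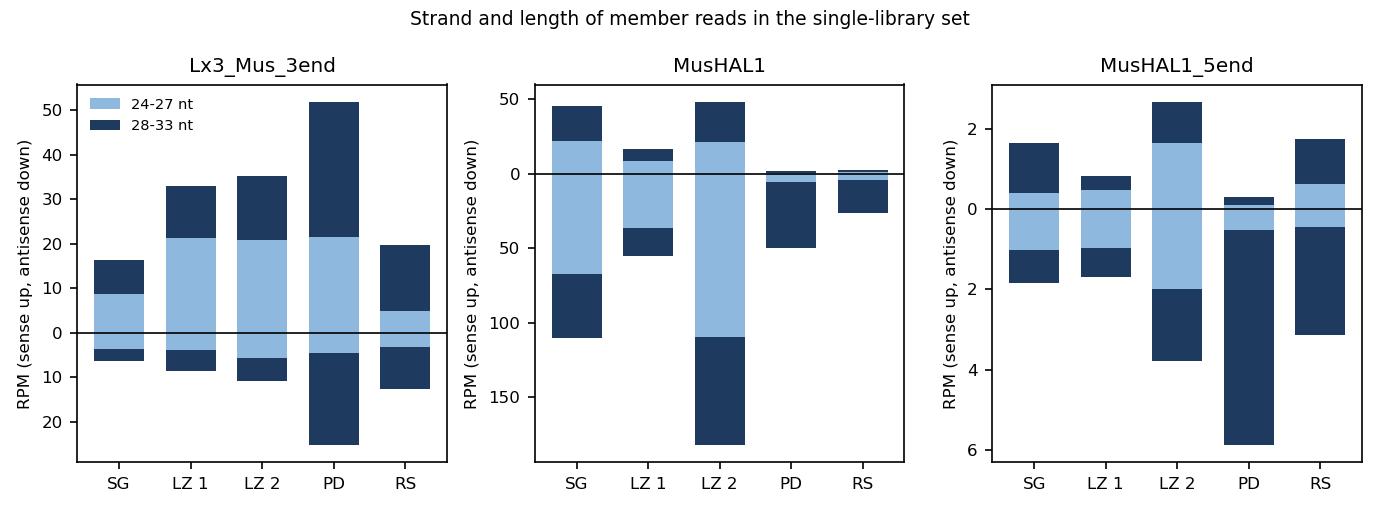
RPM of the 3 Lx and MusHAL1 sequences in the 5 libraries of the single-library set (a scale per panel), sense reads above and antisense reads below 0, light for 24-27 nt and dark for 28-33 nt. Lx3_Mus_3end bars stand mostly above 0, MusHAL1 bars mostly below it, and the PD bar of MusHAL1 is almost all antisense 28-33 nt reads (44.5 RPM).

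Among the LINE sequences, the members differed in how their levels moved from spermatogonia to pachytene/diplotene spermatocytes. Lx3_Mus_3end and MusHAL1_5end ranked 1 and 2 of 19 by the log2 ratio of PD to SG, at 1.76 and 0.82. MusHAL1 ranked 10 at -1.59. Of the 16 other LINE sequences, 1 was higher in PD than in SG (L1VL2_5end, log2 0.36), and their median was -2.02. The lowest was L1_Mm_orf2, the second open reading frame of the mouse L1, at -4.27. With 1 library in each stage these ranks were not tested. A change of scale leaves the ranks but moves every ratio alike, so the signs and the count higher in PD hold for RPM. MusHAL1_5end, under 10 RPM in both stages, was at -0.68 per 24-33 nt reads and 2.84 per 19-23 nt reads. For the 15 other LINE sequences with at least 10 RPM in either stage, the median was -2.08 in RPM. It was -3.58 per 24-33 nt reads and -0.06 per 19-23 nt reads.

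Measured within each library, and so free of the library scale, the 3 members together made up 1.58% of LINE piRNAs for SG, 2.65% ± 0.0218 (SD, n = 2) for LZ, 7.74% for PD and 7.68% for RS. The LZ shares thus lay between that of SG and those of the later stages. Lx3_Mus_3end alone made up 0.198% of LINE piRNAs for SG, 0.691% ± 0.363 (SD, n = 2) for LZ and 4.42% for PD. MusHAL1 made up 1.35% for SG, 1.90% ± 0.382 (SD, n = 2) for LZ and 2.96% for PD. The other LINE sequences summed to 1612 RPM for PD, against 11310 RPM for SG and 7320 ± 4289 RPM (SD, n = 2) for LZ, so the larger share in PD went with a smaller LINE total.

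**Figure D3:**
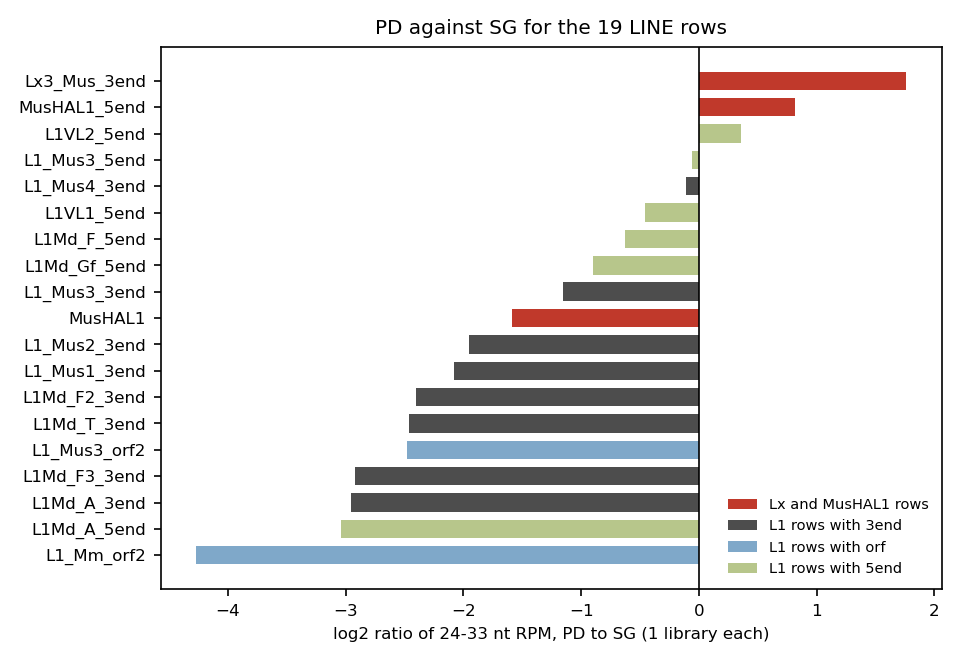
Log2 ratio of 24-33 nt RPM, PD to SG, for the 19 LINE sequences, coloured by the portion in their name, with 1 library behind each stage. Lx3_Mus_3end (1.76) and MusHAL1_5end (0.82) are at the top, and MusHAL1 (-1.59) lies in the middle among L1 portions.

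The comparison of LZ_T with LZ asked how piRNAs at the same labelled stage differed between the sets. All 3 members were lower in LZ_T. Lx3_Mus_3end was at 2.34 and 1.75 RPM in the 2 LZ_T samples against 41.7 and 46.3 RPM in LZ, a 21.5-fold lower mean. MusHAL1 was at 14.6 and 7.96 RPM against 71.7 and 231 RPM, a 13.4-fold lower mean. MusHAL1_5end was at 0.945 and 0.615 RPM against 2.51 and 6.44 RPM, a 5.74-fold lower mean. For all 3 both LZ_T samples lay below both LZ samples, as for 128 of the 136 retrotransposons tested (94.1%).

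By limma on log2(RPM + 1), where a fold change of a low value is understated, the differences were -3.89 ± 0.44 (SE, adjusted p = 6.96e-16) for Lx3_Mus_3end, -3.46 ± 0.44 (adjusted p = 3.93e-13) for MusHAL1 and -1.53 ± 0.44 (adjusted p = 0.000774) for MusHAL1_5end. With the Benjamini-Hochberg adjustment over all 136, 125 were lower (91.9%) and 3 higher (2.21%), so the members' 3 of 3 was near the background. The labels do not say whether replicates were separate animals, so p-values measure only the spread between these samples. Limma estimated the same variance for every row, which is why the SEs are equal. With each row's own variance instead, the adjusted p from limma was 0.0173 for Lx3_Mus_3end, 0.0731 for MusHAL1 and 0.119 for MusHAL1_5end, within ranges over all alternatives of 3.31e-19 to 0.0173, 2.78e-16 to 0.0731 and 5.66e-05 to 0.119. Scaled to the 24-33 nt reads, MusHAL1_5end was lower by a log2 difference of only -0.82 (adjusted p = 0.117, limma).

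The median log2 difference over all 136 was -2.87, and over the 16 other LINE sequences it was -4.25, with 16 of 16 lower. These ranged from L1Md_F2_3end at -5.14 to L1Md_Gf_5end at -1.14. The median moved to -2.74 with RPM rescaled to the listed retrotransposons, to -2.30 per 24-33 nt reads and to -3.17 per 19-23 nt reads. Relative to the median of its own scale, Lx3_Mus_3end was lower by 0.59 to 1.19 (log2) on these scales, and MusHAL1_5end was higher by 1.29 to 1.49. MusHAL1 was from 0 to 0.83 below it. These positions depended on the rows tested. Over the 71 rows with a mean of at least 10 RPM the median was -4.41, and Lx3_Mus_3end (-3.89) and MusHAL1 (-3.46) lay above it. The 1 RPM added before the logarithm understates the difference for MusHAL1_5end, at -1.53 in the fit against log2 -2.52 by the ratio of its means.

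As a ratio to the other LINE sequences within each sample, the members together did not separate the sets, at log2 -5.20 in LZ and -5.00 in LZ_T (two-sided exact permutation test, p = 1). Lx3_Mus_3end was at -7.24 in LZ and -7.75 in LZ_T (exact permutation test, p = 0.667), and MusHAL1 was at -5.70 and -5.34 (exact permutation test, p = 0.667). MusHAL1_5end was at -10.69 in LZ and -9.16 in LZ_T, higher in 4 of 4 sample pairs (exact permutation test, p = 0.333, the smallest that 2 against 2 samples allow). The p adjusted over the 20 permutation tests of this kind was 0.556 for the latter.

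Sense and antisense reads were both lower in LZ_T. For Lx3_Mus_3end the log2 difference was -4.04 ± 0.43 (SE) for sense and -2.51 ± 0.36 (SE) for antisense reads. For MusHAL1 it was -2.30 ± 0.55 (SE) for sense and -3.88 ± 0.54 (SE) for antisense reads. These 4 passed the threshold, as did 86 of 104 retrotransposons for sense (82.7%) and 98 of 105 for antisense reads (93.3%). For each element the strand that was the more abundant in LZ had the larger difference, and the difference between strands was not tested with the fit. MusHAL1_5end was at -0.92 ± 0.47 (SE, adjusted p = 0.0841, limma) for sense and -1.36 ± 0.41 (SE, adjusted p = 0.00911) for antisense reads.

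The strand shares moved accordingly. Lx3_Mus_3end was 44.0% and 44.3% antisense in the 2 LZ_T samples against 20.9% and 23.8% in LZ, and MusHAL1 was 50.6% and 58.7% against 77.3% and 79.0%. Neither pair of groups overlapped (exact permutation test, p = 0.333 for each, the smallest possible). Of the summed RPM of the other LINE sequences, 1932 of 4287 and 4627 of 10353 were antisense in the LZ libraries. In the LZ_T samples it was 104 of 479 and 103 of 395. That share was lower in LZ_T, as for MusHAL1 and unlike Lx3_Mus_3end. The Lx3_Mus_3end share in LZ_T rested on 10.9 and 17.3 reads' worth of RPM. With the reads of both technical replicates summed, which weights the deeper one more than the mean of RPM does, the Wilson intervals were 28.01% to 78.7% and 36.0% to 78.4%. Its gap from LZ was 2.16 percentage points with technical replicate 1 alone and 54.5 with technical replicate 2 alone. For MusHAL1, on 106 and 88.8 reads' worth, it was -33.9 and -16.2 points.

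**Figure D4:**
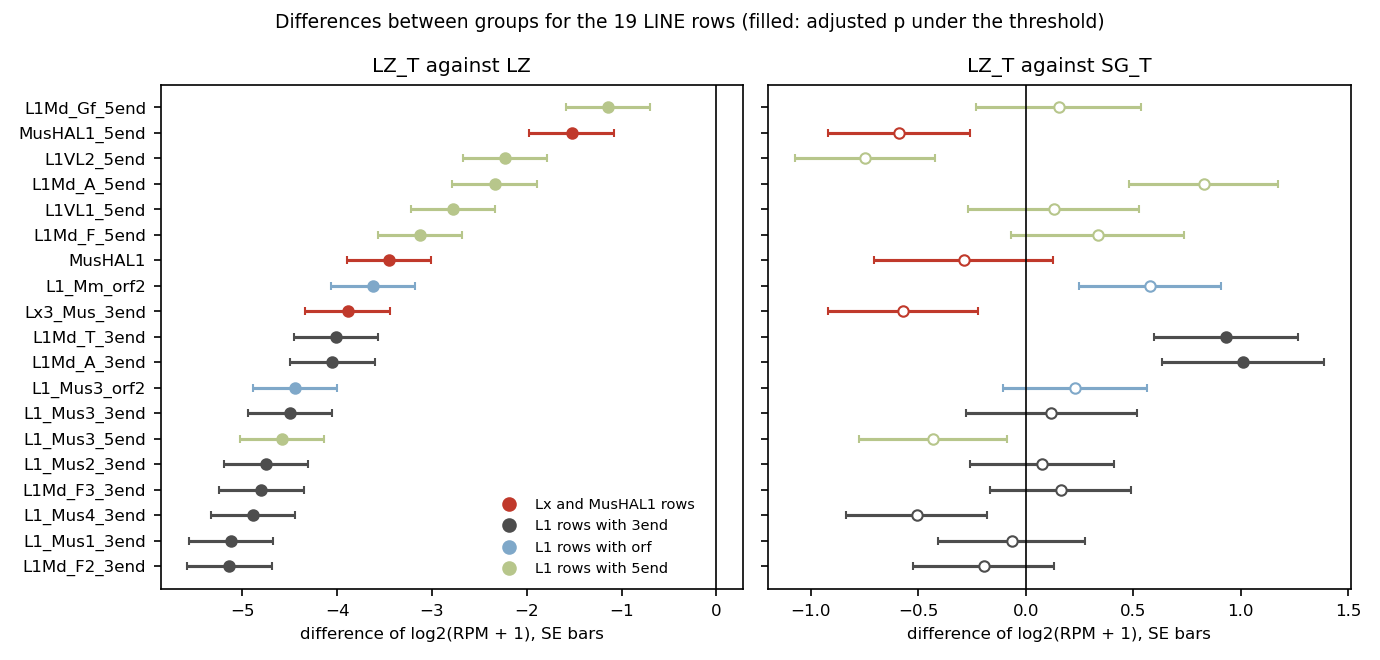
Difference of log2(RPM + 1) from limma for the 19 LINE sequences, with SE bars and filled points where the adjusted p was under 0.05, for LZ_T against LZ (left) and LZ_T against SG_T (right). At left the 3 Lx and MusHAL1 sequences lie between -3.89 and -1.53 within the range of the L1 portions, and at right they lie below 0 with open points.

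The same direction was seen between the spermatogonia of the sets, where SG had 1 library and no test was made. Lx3_Mus_3end was at 4.41 and 2.74 RPM in SG_T against 22.8 RPM in SG, a 6.37-fold lower mean. MusHAL1 was at 19.1 and 9.40 RPM against 155 RPM, a 10.9-fold lower mean. MusHAL1_5end was at 1.57 and 1.76 RPM against 3.51 RPM, a 2.11-fold lower mean. The sum over the other LINE sequences was 35.7-fold lower in SG_T than in SG, and that over all listed retrotransposons 10.1-fold lower.

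By the ratio of the means, the difference between LZ and LZ_T was largest in the 24-27 and 28-33 nt classes for all 3 members. Reads of 11-18 nt matching Lx3_Mus_3end were at 236 and 190 RPM in LZ and at 181 and 206 RPM in LZ_T, so the groups overlapped. Those matching MusHAL1 were at 213 and 217 RPM in LZ and 313 and 408 RPM in LZ_T, a mean 1.67 times as high. Those matching MusHAL1_5end were at 54.2 and 46.2 RPM in LZ and 49.3 and 51.3 RPM in LZ_T. The sum over the other LINE sequences in this class was 1.05-fold lower in LZ_T, and that over all listed retrotransposons was 1.09 times as high. How reads of this length were mapped is not given, and whether they came from these elements was not tested. Reads of 11-18 nt made up 25.1% to 26.7% of all reads in the LZ libraries and 22.7% to 45.8% in those of LZ_T. At 19-23 nt, the LZ libraries held 18.04 ± 2.26 RPM of Lx3_Mus_3end (SD, n = 2) and the LZ_T samples 2.46 ± 0.827 RPM (SD, n = 2), a 7.35-fold lower mean. At 28-33 nt it was 38.7-fold lower, from 18.2 to 0.470 RPM, where 0.470 RPM rests on few reads.

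Other measures of the libraries moved with the set. The share of 24-33 nt reads was 39.3% to 45.2% in LZ and 15.3% to 24.8% in LZ_T, and miR-126a-3p was at 58.4 to 136 RPM in LZ and 562 to 1320 RPM in LZ_T. The list of somatic and blood markers with a reference sequence (2 of 4) was thus higher in each LZ_T library than in either LZ library, with miR-451a at 0.0573 to 0.134 RPM against 4.26 to 11.7 RPM. Of the meiotic markers (2 of 3), miR-449a-5p was at 24.1 to 36.1 RPM in LZ and 6.38 to 17.4 RPM in LZ_T, and miR-34b-5p at 3.27 to 5.04 against 0.757 to 1.32 RPM. Their part in the lower piRNA levels was not tested.

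**Figure D5:**
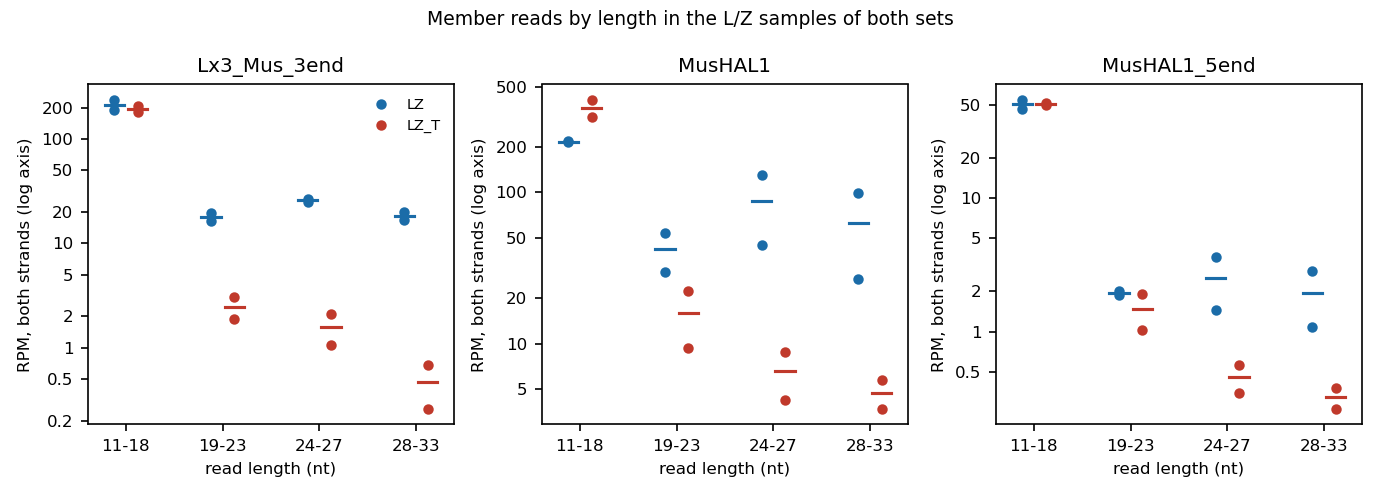
RPM of reads of 4 length classes (log axis, a scale per panel) matching the 3 Lx and MusHAL1 sequences in the 2 LZ and 2 LZ_T samples, with lines for means. At 11-18 nt the sets lie close together or LZ_T is higher (MusHAL1), and at 24-27 and 28-33 nt every LZ_T sample lies below both LZ samples.

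Within the technical-replicate set, LZ_T was compared with SG_T to ask how piRNAs changed at meiotic entry there. Lx3_Mus_3end was at 4.41 and 2.74 RPM in SG_T and 2.34 and 1.75 RPM in LZ_T, with no overlap. MusHAL1 was at 19.1 and 9.40 RPM in SG_T and 14.6 and 7.96 RPM in LZ_T, with overlap. MusHAL1_5end was at 1.57 and 1.76 RPM in SG_T and 0.945 and 0.615 RPM in LZ_T, with no overlap. In all, 11 retrotransposons, these 2 members included, lay lower without overlap among the 58 retrotransposons tested (19%).

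No member passed the threshold of limma in this comparison. The log2 differences were -0.57 ± 0.35 (SE, adjusted p = 0.203) for Lx3_Mus_3end, -0.29 ± 0.42 (SE, adjusted p = 0.621) for MusHAL1 and -0.59 ± 0.33 (SE, adjusted p = 0.169) for MusHAL1_5end, and none of the 3 had an unadjusted p under 0.05. Of the 58 retrotransposons, 25 were higher (43.1%) and 0 lower (0.0%), with a median of 0.80. The 16 other LINE sequences had a median of 0.14, with 2 higher and 0 lower, and ranged from L1VL2_5end at -0.75 to L1Md_A_3end at 1.01. The members lay below the median of all rows by 1.37, 1.09 and 1.39 (log2) in that order, and by 0.85 to 1.40 over the other scales. That median was 0.0017 over 262 rows with no filter and 2.14 over 24 rows at a mean of at least 10 RPM. It was 0.40 over 62 rows with technical replicate 2 alone, so these gaps depended on the rows tested. Rescaled to the listed total, which moved the median to -1.57, the split was 0 higher and 48 lower of 77 tested. On that scale all 3 members were lower, by -2.80, -2.94 and -2.42 (adjusted p = 0.00247, 0.00364 and 0.00351, limma). The listed total itself was 3745 and 2800 RPM in SG_T and 22388 and 23471 RPM in LZ_T. Much of that was in the SINE sequences B1_Mm, B1_Mus1 and B1_Mus2, with LZ_T means of 7860, 4780 and 4516 RPM. Their SG_T means were 976, 514 and 486 RPM, so the lower values on this scale depend on that denominator.

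Depth limits this comparison. The 4 libraries of each group held 39.8 reads' worth of RPM in SG_T and 28.2 in LZ_T for Lx3_Mus_3end, and 14.0 and 14.3 for MusHAL1_5end. In 3 of the 8 libraries for Lx3_Mus_3end and 5 of 8 for MusHAL1_5end the value was at or under that of 3 counts, which was 0.388 to 3.52 RPM. A difference for MusHAL1 was not resolved between its samples, and its sign turned to 0.11 without LZ_T replicate 2 and to 0.18 without SG_T replicate 1.

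Relative to the other LINE sequences of each sample, the members together were lower in LZ_T than in SG_T, at log2 -5.00 against -4.08, in 4 of 4 sample pairs (exact permutation test, p = 0.333, the smallest possible, adjusted p = 0.556 over 20 tests). The difference was -1.24 for Lx3_Mus_3end, -0.77 for MusHAL1 and -1.59 for MusHAL1_5end, each with the same p from the exact permutation test. The members made up 5.70% ± 1.76 (SD, n = 2) of LINE piRNAs for SG_T and 3.07% ± 0.746 (SD, n = 2) for LZ_T. This direction is opposite to that of the single-library set, given above, and the change in Lx3_Mus_3end RPM was opposite too. The test of that difference, an interaction term in limma over the 9 biological samples and 140 retrotransposons, gave -1.49 ± 0.52 (SE, adjusted p = 0.0808) for Lx3_Mus_3end, which did not pass, while 16 retrotransposons were lower (11.4%) and 11 higher (7.86%). SG enters this fit as 1 library that is assumed to vary like the replicated groups, so its SE, p and counts rest on that assumption.

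The antisense share was lower in LZ_T than in SG_T for each member, from 67.4% ± 11.2 to 44.2% ± 0.190 for Lx3_Mus_3end, from 70.8% ± 9.56 to 54.7% ± 5.74 for MusHAL1 and from 66.5% ± 0.485 to 50.4% ± 10.3 for MusHAL1_5end (SD, n = 2 each). None of these differences could pass the exact permutation test, for which p = 0.333 in all 3. The other LINE sequences, summed, moved the same way. Of their RPM, 135 of 335 and 90.2 of 298 were antisense in the SG_T samples. In the LZ_T samples it was 104 of 479 and 103 of 395, a lower share. For Lx3_Mus_3end the difference was -40.4 percentage points with technical replicate 1 alone and 7.69 with technical replicate 2 alone, so its direction was not stable at this depth. For MusHAL1_5end it was 12.5 and -32.9.

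The sequences whose pattern was most like each member were found by Pearson's r of log2(RPM + 1) over the 9 biological samples, among 139 others with a mean of at least 1 RPM. For Lx3_Mus_3end these were the LTR sequences RMER17B2 (r = 0.992), LTRIS2 (r = 0.991) and RLTR10C (r = 0.985), with r of 0.941, 0.966 and 0.851 over the 5 libraries of the single-library set alone. RMER17B2 held 54.6 RPM in PD, 30.03 and 33.96 RPM in the LZ libraries, 27.4 RPM in RS and 9.81 RPM in SG, so it too was highest in PD. For MusHAL1 they were L1 sequences, namely L1_Mus3_orf2 (r = 0.975), L1Md_F2_3end (r = 0.974) and L1_Mus2_3end (r = 0.973), which stayed at 0.971, 0.959 and 0.966 within the single-library set. L1_Mus3_orf2 held 2772 RPM in SG and 1008 and 2457 RPM in the LZ libraries, against 497 RPM for PD and 290 RPM for RS.

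For MusHAL1_5end they were L1VL2_5end (r = 0.969), Lx3_Mus_3end (r = 0.918) and LTRIS_Mus (r = 0.915), which came to 0.941, 0.518 and 0.738 within the single-library set. Lx3_Mus_3end and MusHAL1 had r = 0.808 over the 9 samples. MusHAL1 and MusHAL1_5end had r = 0.766, although the latter stands for the 5′ portion of the same element. These correlations are descriptions over samples that fall into 2 sets of unequal level and share libraries and depth.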

How the data were processed

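Small RNA libraries (TruSeq Small RNA kit) were sequenced in 50-bp or 100-bp single-end runs. Per the study's methods, the authors discarded miRNAs and other abundant noncoding RNAs with SeqMap, mapped 24-33 nt reads to retrotransposon consensus sequences with 2 mismatches allowed and divided reads among equally good matches. Adapters were trimmed with cutadapt (submitters' processing notes). How other lengths were mapped is not given in the sources used here. The deposited tables give RPM of the whole library by strand and length class. The deposited sequence lists give raw read counts, used for depth, length shares and marker miRNAs, 1 line of the SG list lacking a count. In all 3406 rows, strands and classes added up within 0.02 RPM.

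Technical replicates were averaged. Fits used limma 3.58.1 (R 4.3.3) on log2(RPM + 1) for rows with a mean of at least 1 RPM, a threshold of 0.05 and Benjamini-Hochberg adjustment, and were tested on simulated data. Shares were compared by exact permutation tests (scipy 1.17.1). Up to 8 rows per table that are no retrotransposon were left out. Every member was named, the 3 most alike sequences per member and the extreme other LINE sequences. The members and lists were chosen with earlier results of these data known. Alternatives covered pseudocount, filter, scaling, technical replicates, block and left-out replicates. The variance alternatives (trend, each row alone), the crossed block and the strand and interaction fits were chosen after seeing the data.

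Marker miRNAs were matched by their first 18 nt to RefSeq mature sequences, for miR-34b-5p, miR-449a-5p, miR-126a-3p and miR-451a. Not matched were miR-34c-5p, miR-143-3p and miR-145a-5p.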

Additional observations from a re-analysis of the deposited data

Results flagged for a closer look

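Lx3_Mus_3end, the 3′ portion of an Lx element, differed in direction between the sets in the comparison of leptotene/zygotene spermatocytes with spermatogonia. In the single-library set both LZ libraries lay above SG (41.7 and 46.3 against 22.8 RPM), a difference of 0.92 in log2(RPM + 1). In the technical-replicate set both LZ_T samples lay below both SG_T samples (2.34 and 1.75 against 4.41 and 2.74 RPM), a difference of -0.57. The test of the difference itself, an interaction term in limma over the 9 biological samples, gave -1.49 ± 0.52 (SE, unadjusted p = 0.0179). It did not pass after adjustment over the 140 retrotransposons tested (adjusted p = 0.0808), of which 16 (11.4%) were lower and 11 (7.86%) higher. The same term was -0.02 ± 0.89 (SE, adjusted p = 0.983) for MusHAL1 and -0.77 ± 0.62 (SE, adjusted p = 0.466) for MusHAL1_5end. SG is a single library, assumed in this fit to vary like the replicated groups, and the SE, p and counts rest on that. The SG_T and LZ_T values rest on 5.003 to 34.8 and on 10.9 to 17.3 reads' worth of RPM. The 24-33 nt share of reads and the marker miRNAs also differed between the sets, and their part in this result was not tested.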

How the results depend on the processing

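For LZ_T against LZ, Lx3_Mus_3end stayed lower and past the threshold in all 19 alternatives, MusHAL1 in 18 and MusHAL1_5end in 14 of 18. MusHAL1_5end did not pass with a pseudocount of 5 RPM (-0.68), with no filter (-1.53), per 24-33 nt reads (-0.82) or with each row's own variance (-1.53), and neither did MusHAL1 (-3.46) with the latter, which left 1 member called. Without each replicate in turn, Lx3_Mus_3end ranged from -4.03 to -3.75, MusHAL1 from -4.29 to -2.62 and MusHAL1_5end from -2.07 to -0.99, with 3 members lower each time, a lone sample being assumed to vary like the others. The number of all rows called lower went from 125 of 136 to 63 of 71 at a mean of at least 10 RPM and to 173 of 262 with no filter, with other numbers of rows tested, and the number higher from 3 to 5 per 24-33 nt reads. For LZ_T against SG_T, rescaling to the listed total gave -2.80, -2.94 and -2.42 and 3 members called lower. Without each replicate in turn Lx3_Mus_3end ranged from -0.84 to -0.30, MusHAL1 from -0.76 to 0.18 and MusHAL1_5end from -0.72 to -0.45, with 0 members called. The rows called higher fell from 25 to 3 with no filter, to 4 with each row's own variance and to 15 without SG_T replicate 2. Those called lower went from 0 to 48 (and those higher to 0) rescaled to the listed total, to 4 per 24-33 nt reads and to 1 with a pseudocount of 0.5 RPM, with no filter, with technical replicate 2 alone and with each row's own variance.

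Replicate numbers are shared by groups, but with 2 pairs they share only a number. The correlation of the deviations was 0.11 for SG_T and LZ_T and -0.19 for LZ and LZ_T. With the replicate block, LZ_T against SG_T stayed at -0.57, -0.29 and -0.59 with 0 members called, and 4 rows were lower and 30 higher. LZ_T against LZ had 124 lower with the replicate block and 128 with crossed numbers, with 3 members lower in each, and the block changed no call of a member.

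Ratios between stages of the single-library set moved with the scale. For Lx3_Mus_3end, LZ to SG was 1.17, 0.46 and 1.38 (log2, rescaled to the listed total, per 24-33 nt and per 19-23 nt reads), PD to LZ was 1.70, -0.20 and 2.41, PD to SG was 2.87, 0.26 and 3.78, and RS to PD was -0.028 rescaled. For MusHAL1, PD to SG was -0.48, -3.09 and 0.44, PD to LZ was 0.088 per 19-23 nt reads, and RS to PD was 0.37 rescaled. For MusHAL1_5end, PD to LZ was 1.51, -0.58 and 2.09, PD to SG was 1.93, -0.68 and 2.84, and RS to PD was 0.88 rescaled. By either LZ library alone, Lx3_Mus_3end ranged from 0.87 to 1.02 for LZ to SG and from 0.74 to 0.89 for PD to LZ. MusHAL1 ranged from -1.12 to 0.57 and from -2.16 to -0.47, and MusHAL1_5end from -0.48 to 0.88 and from -0.06 to 1.30. The cause was not tested.

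The antisense share turned in direction for Lx3_Mus_3end in PD against LZ at 24-27 nt (-0.48 points). It also turned in LZ_T against SG_T at 28-33 nt (4.06 points) and with technical replicate 2 alone (7.69). MusHAL1_5end turned at 28-33 nt (2.01 against LZ, 36.96 against SG_T) and with technical replicate 1 alone (1.98 and 12.54). Relative to the other LINE sequences, LZ_T minus LZ (0.20 for the members together) was -0.50 for Lx3_Mus_3end and 1.54 for MusHAL1_5end alone, and LZ_T minus SG_T was -1.59 for MusHAL1_5end alone. The depth of the technical-replicate set limits these shares.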
